A study of Mus musculus with 24 samples.

Results

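The 53 genes described here code for the machinery of mitosis: the cyclins and kinases that start it, the condensins that compact chromosomes, the kinetochore that ties chromosomes to the spindle, the checkpoint that waits for them, the motors that build the spindle, and the proteins that cut the cell apart. They were chosen by gene symbol, 53 of the 33846 genes in the deposited gene table, and all 53 were among the 16792 genes that passed the filter on low counts. They were measured by polyA RNA sequencing in 24 libraries of retinal organoids, pieces of retina-like tissue grown from mouse embryonic stem cells. The stem cells, which the labels call wild-type, came from blastocysts of Nrl-GFP transgenic mice, which carry a fluorescent rod reporter, and there was also another wild-type clone, R1. The labels do not say which library came from which.

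Optic cups were cut out of the organoids at day 10 of differentiation (D10) and grown either in a rotating-wall bioreactor (RWB) or in static suspension (SSCd), or the organoids were left intact in static suspension (SSCi). RWB was sampled at D18 (2 libraries), D22 (3) and D25 (3), SSCd at D18, D22 and D28 (3 each), and SSCi at D18 (2), D25 (2) and D32 (3). The medium was enriched with serum, B27 and amino acids at D18 for RWB and SSCd but not until D26 for SSCi, so day and that change cannot be told apart in steps that cross it, which are those starting at D18 for the dissected cultures and those ending at D32 for SSCi. No change of medium is stated within RWB D22 to D25, SSCd D22 to D28 or SSCi D18 to D25. At D25, RWB and SSCi also differed in medium. The libraries of a group are repeated experiments, which the series' design text calls biological replicates.

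In the developing retina, dividing progenitors supply all neurons and the Mueller glia, and cells that become neurons leave the cycle for good. Cyclin B and its kinase Cdk1 drive entry into mitosis, the checkpoint proteins hold the anaphase-promoting complex back until every chromosome is attached, and that complex then marks securin and cyclin B for destruction. Transcription of many of these genes peaks late in the cycle, under a complex that reads a short promoter element called CHR, often with CCAAT boxes nearby.

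Promoter windows of the members were searched for short letter matches. Those of 3 members, picked for a CHR match and many CCAAT boxes, are printed. Each window runs from 250 bases before to 50 after a RefSeq gene start, 300 in all, on GRCm38.p6, and capitals mark every match on either strand to CHR (TTTGAA or TTCGAA) or to CCAAT. They are Top2a at chr11:99024140-99024439 (minus strand), Aspm at chr1:139454523-139454822 (plus strand) and Cdk1 at chr10:69352863-69353162 (minus strand).
Top2a: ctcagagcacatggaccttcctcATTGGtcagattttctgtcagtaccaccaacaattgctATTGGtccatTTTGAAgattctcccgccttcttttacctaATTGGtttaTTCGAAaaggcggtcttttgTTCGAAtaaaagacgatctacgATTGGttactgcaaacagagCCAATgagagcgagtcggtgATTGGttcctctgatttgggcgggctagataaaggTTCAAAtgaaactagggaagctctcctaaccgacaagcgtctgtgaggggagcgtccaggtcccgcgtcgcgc
Aspm: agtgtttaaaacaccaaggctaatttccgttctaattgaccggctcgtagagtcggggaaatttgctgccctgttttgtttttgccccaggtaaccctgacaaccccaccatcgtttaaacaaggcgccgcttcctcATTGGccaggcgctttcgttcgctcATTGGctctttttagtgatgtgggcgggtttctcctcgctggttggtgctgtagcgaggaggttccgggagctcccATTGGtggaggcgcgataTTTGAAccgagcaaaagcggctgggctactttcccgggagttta
Cdk1: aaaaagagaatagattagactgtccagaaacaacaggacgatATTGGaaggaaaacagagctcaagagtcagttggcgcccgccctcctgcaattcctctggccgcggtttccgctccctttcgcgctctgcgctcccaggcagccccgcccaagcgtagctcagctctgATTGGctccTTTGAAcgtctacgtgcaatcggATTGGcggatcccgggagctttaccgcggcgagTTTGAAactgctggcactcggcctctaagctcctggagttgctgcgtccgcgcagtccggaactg

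Of the 53 members, 43 had such a window, 46 windows in all because Bub3, Ect2 and Prc1 have more than 1, which overlap. A CHR match lay in 37 of the 46 windows (80.4%), against 19.2% of all 32851 windows. A CCAAT match lay in 76.1% against 37.4%, at least 2 of them in 54.3% against 11.7%, and both CHR and CCAAT in 69.6% against 7.52%. An E2F-like match (TTTNNCGC, searched like the others on both strands; none of these letter strings contains another) lay in 15.2% against 5.17%. Top2a held 4 CHR and 6 CCAAT matches, the kinase gene Cdk1 held 2 and 3, and Aspm, which organises spindle poles, held 1 and 3. Neither match was found in the windows of Birc5, Mad2l1, Ncaph, Nuf2, Nusap1 and Pttg1. RefSeq and GENCODE M21 place some starts differently: 39 of the 46 windows held the GENCODE gene start, and of these 82.1% had a CHR and 79.5% a CCAAT match. The 7 that did not were of Bub3, Cdca3, Cdca8, Kif2c, Kif4, Mad2l1 and Pttg1. A match is a run of letters and was not tested for binding.

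**Figure D1:**
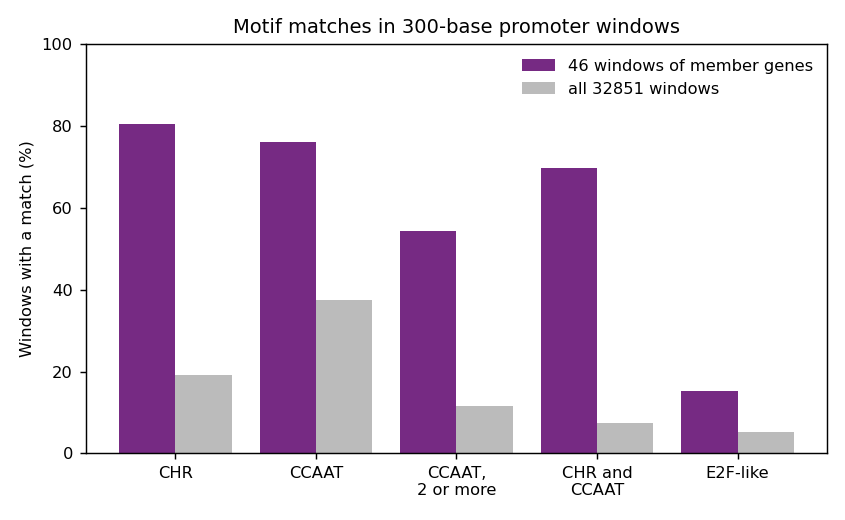
Share of 300-base promoter windows with a motif match, in percent, for the 46 windows of member genes (purple) and for all 32851 windows of the RefSeq table (grey). CHR matches were found in 80.4% of member windows and 19.2% of all windows.

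Library totals ran from 13284708 to 21604538 estimated counts. Mitochondrially encoded genes took 8.26% to 13.1% of counts in replicate 1 of RWB D22, RWB D25, SSCd D18 and SSCd D22, and 2.46% to 5.76% in the other 20 libraries. Mesenchyme markers (12 genes) summed to 7855 CPM (counts scaled to a common library total) in replicate 1 of SSCi D18, 58.6 in replicate 2, and at most 365.6 in any other library. Photoreceptor markers (12 genes) and retinal progenitor markers (12 genes) were all above 0 in every group. Levels below are CPM scaled by TMM, edgeR's correction for library composition, unless stated.

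Nearly all of the 53 genes fell with time in each culture. The mean log2 CPM over the 53 was 6.76 and 6.64 in the 2 RWB libraries at D18, 5.60, 5.69 and 5.46 at D22, and 3.80, 4.24 and 3.49 at D25. In SSCd it was 6.44, 6.74 and 6.21 at D18, 5.22, 5.33 and 4.83 at D22, and 3.10, 3.66 and 2.63 at D28. In SSCi it was 6.22 and 6.59 at D18, 5.03 and 4.91 at D25, and 3.14, 2.79 and 3.03 at D32. In all 3 cultures the libraries of each later day lay below every library of the day before. The members summed to a mean of 7310 CPM at D18 and 1093 at D25 in RWB, 6175 and 722.7 at D18 and D28 in SSCd, and 5897 and 669.2 at D18 and D32 in SSCi. In bulk RNA, fewer dividing cells and less of these RNAs per cell cannot be told apart.

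**Figure D2:**
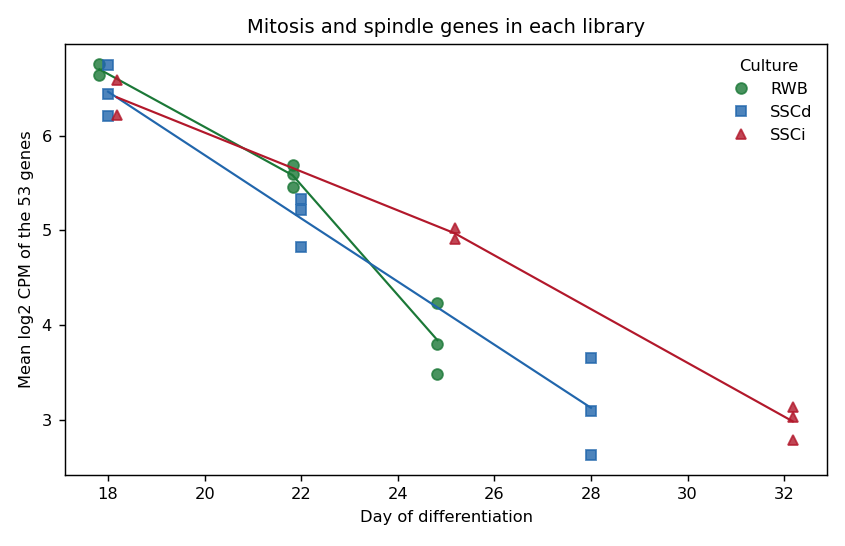
Mean log2 CPM of the 53 genes in each of the 24 libraries (points) against the day of differentiation, by culture, with lines through group means. All 3 cultures start between 6.21 and 6.76 at D18 and end between 2.63 and 4.24.

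Over the whole course, 52 of 53 members were lower at D25 than at D18 in RWB (edgeR quasi-likelihood test, Benjamini-Hochberg adjusted p under 0.05, used for every count below), where 14% of all tested genes were lower. In SSCd all 53 were lower at D28 than at D18, against 17.1% of all genes, and in SSCi 52 were lower at D32 than at D18, against 20.5%. The median log2 fold change of the members was -2.94, -3.49 and -3.65, and that of all genes 0.06, 0.02 and -0.05. At the last day the median member had 13% of its D18 mean left in RWB, 8.86% in SSCd and 7.97% in SSCi. The only member not called, in RWB (-0.65, edgeR adjusted p = 0.154) and in SSCi (-0.63, edgeR adjusted p = 0.147), was Pttg1, the securin that keeps separase inactive until anaphase. The 3 courses differ in length, so their sizes are not comparable as rates.

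The first step of each course was already large. From D18 to D22, 35 members were lower in RWB (4.88% of all genes) and 50 in SSCd (5.13%), with medians of -1.16 and -1.42. From D18 to D25, 46 were lower in SSCi (10.9%), with a median of -1.51. The next step was larger in the median. It lowered 48 members in RWB from D22 to D25 (3.23% of all genes, median -1.80), 50 in SSCd from D22 to D28 (5.05%, median -2.06), and 48 in SSCi from D25 to D32 (4.54%, median -2.12). Fitted with only its own 6 libraries, the RWB step from D22 to D25 gave 28. Of the 53, 31 were lower in all 9 of these comparisons, 14 in 8, Bub3 and Spc25 in 4, and Pttg1 in 1.

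The members that led a step differed. In RWB from D18 to D22 the lowest were Aurkb (-1.73, SE 0.41), Kif15 (-1.63) and Kif4 (-1.53), and the called members that fell least were Bub1b (-0.92), Ube2c (-0.97) and Ccnb1 (-1.08). From D22 to D25 the lowest were Mki67 (-2.40), Plk1 (-2.36) and Cenpe (-2.33). In SSCd they were Bub1 (-1.77), Ttk (-1.72) and Kif11 (-1.70) from D18 to D22, then Aspm (-2.86), Ndc80 (-2.79) and Mki67 (-2.76). In SSCi from D18 to D25 they were Ttk (-2.04), Hmmr (-1.95) and Kif20b (-1.90), and from D25 to D32 Mki67 (-3.15), Ccnb1 (-3.05) and Aspm (-2.92). Mad2l1, Spc25, Kif15, Pttg1 and Bub3 did not pass in the later RWB step. In SSCd, Spc25 (-0.94), Pttg1 (-0.26) and Bub3 (-0.24) did not pass in the earlier step, and Ncapd2 (-0.81), Pttg1 (-0.73) and Incenp (-0.72) not in the later. Mad2l1, Smc4, Bub3, Spc25 and Pttg1 did not pass in SSCi from D25 to D32. Whether 2 members differed from each other in a step was not tested.

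The early counts rested on single libraries more than the late ones. For RWB D22 against D18, 12 and 5 members were called without D18 replicate 1 or 2, 16 and 21 without D22 replicate 1 or 3, and 20 without the 4 libraries of high mitochondrial share. For SSCi D25 against D18, 25 were called without D18 replicate 2, and 28 and 14 without D25 replicate 1 or 2. Without D18 replicate 1 of SSCi, the library with the mesenchyme markers, 39 were called. For SSCd D22 against D18, 33 were called without D18 replicate 2. A lone library left in a group was assumed to vary like the other groups. Leaving out a library also weakens the test for every other gene. These counts were not set against those of all genes in the same fits, so they do not single out the members. No member's log2 fold change was above 0 in the full fit of any of the 9 comparisons except that of Pttg1 in SSCi from D25 to D32 (0.09, edgeR adjusted p = 0.924).

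Mki67, the gene of the proliferation antigen Ki-67 that coats mitotic chromosomes, was among the most abundant members. In RWB it stood at 740.5 and 719 CPM at D18, 190, 326 and 324 at D22, and 30.8, 83.6 and 44.3 at D25. In SSCd it stood at 444.5, 787 and 507 at D18, 167, 276 and 172 at D22, and 29.4, 47.7 and 13.8 at D28. In SSCi it fell from 498 and 626.5 at D18 through 213.5 and 184 at D25 to 26.1, 19.7 and 21.3 at D32. No library of a later day overlapped one of an earlier day within a culture. The log2 fold changes from first to last day were -3.79 (SE 0.43), -4.26 (SE 0.43) and -4.65 (SE 0.45) in RWB, SSCd and SSCi, and the highest of the 3 edgeR adjusted p values was 2.47e-06. Top2a, the topoisomerase that untangles sister chromatids, went with it, from 838 ± 31.9 CPM (SD, n = 2) to 76.9 ± 32.1 (n = 3) in RWB and from 697 ± 90.3 (n = 2) to 29.3 ± 2.89 (n = 3) in SSCi.

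Among the 7 cyclins and kinases of mitotic entry, all were lower from first to last day in each culture, with median log2 fold changes of -2.85, -3.82 and -3.94 in RWB, SSCd and SSCi. Ccnb1, cyclin B1, had the largest fall of any member in SSCi, to 3.56% of its D18 mean. It stood there at 135 and 190 CPM at D18, 46.8 and 49.3 at D25, and 6.08, 5.31 and 5.97 at D32. In RWB it stood at 259 and 205 at D18, 120, 126 and 82.4 at D22, and 22.0, 28.7 and 16.1 at D25, so 9.58% was left. The groups did not overlap in either culture. Its partner kinase Cdk1 fell from 209.5 ± 68.6 CPM (SD, n = 2) to 32.3 ± 15.5 (n = 3) in RWB and from 161 ± 32.3 (n = 2) to 9.95 ± 3.29 (n = 3) in SSCi. Plk1, the polo kinase of spindle pole maturation, kept the least of its D18 mean in RWB after Mki67, 7.80%, and 10.2% in SSCi.

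The 5 condensin subunits were all lower over each course but kept very different shares of their D18 level. Ncapg, a subunit of condensin I, was left at 13.3% in RWB, 5.20% in SSCd and 5.97% in SSCi. Ncapd2, another subunit of the same complex, was left at 16.5%, 23.8% and 27.0%, and Smc4, an ATPase shared by condensin I and II, at 27.1%, 22.3% and 21.4%. In SSCi Ncapd2 stood at 163 and 256 CPM at D18 and at 61.8, 49.0 and 58.7 at D32, where Ncapg stood at 5.44, 2.38 and 5.31. Both genes were thus lower in every D32 library than in any D18 library. The difference between the subunits was not tested.

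Within the centromere and kinetochore genes, 1 subunit of the 4-part Ndc80 complex, which grips spindle microtubules, kept more of its level than the other 3. In SSCi, Spc25 stood at 94.6 and 98.9 CPM at D18, 57.3 and 40.2 at D25, and 42.2, 35.7 and 43.3 at D32. Spc24, which pairs with Spc25 in the complex, stood at 17.2 and 31.4 at D18, 8.31 and 14.6 at D25, and 1.77, 1.40 and 1.97 at D32. Spc25 did not fall further after D25 beyond its error (log2 fold change -0.27, SE 0.41, edgeR adjusted p = 0.772), while Spc24 (-2.74), Ndc80 (-2.73) and Nuf2 (-2.01) were all lower. At D32 Spc25 was left at 41.8% of its D18 mean, Spc24 at 7.04%, Ndc80 at 4.34% and Nuf2 at 8.04%. In RWB at D25 the same shares were 31.0%, 13%, 10.0% and 13.8%, and in SSCd at D28 16.9%, 8.13%, 4.66% and 7.89%. The difference between Spc25 and the other subunits was not tested. Spc25 remained lower than at D18 in all 3 cultures, with edgeR adjusted p values up to 0.018 in SSCi. The centromere proteins Cenpa, Cenpe and Cenpf were left at 5.39% to 16.2% across the 3 cultures.

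**Figure D3:**
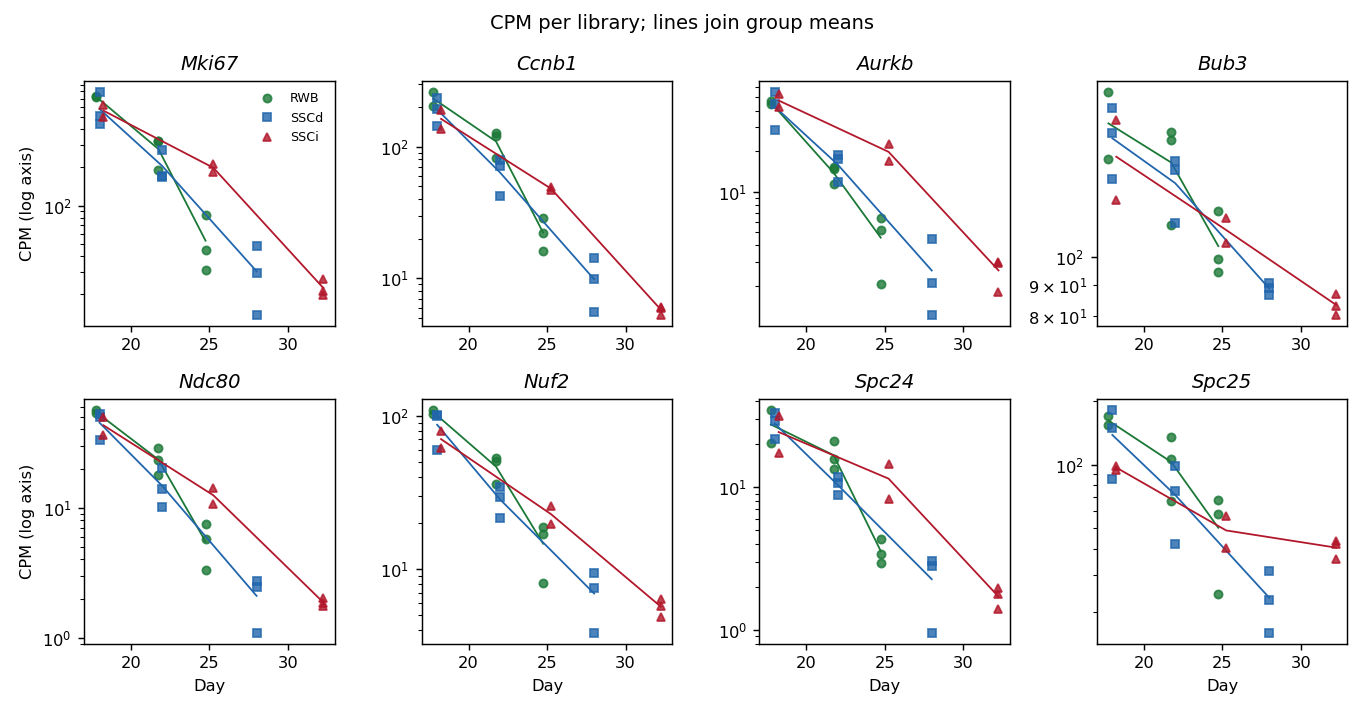
CPM of 8 member genes in each library (log axis, scaled per gene) against day of differentiation, points set slightly apart by culture, with lines joining group means. In the lower row, the 4 subunits of the Ndc80 complex, Spc25 ends at 35.7 to 43.3 CPM in SSCi D32 and Spc24 at 1.40 to 1.97.

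The spindle checkpoint genes also kept unlike shares, and differences between them were not tested. Bub3, which also works outside mitosis in RNA processing, stood at 185 and 144 CPM in RWB at D18, 154, 160 and 113 at D22, and 118, 99.1 and 94.5 at D25. In SSCi it stood at 124 and 167 at D18, 105 and 116 at D25, and 86.9, 83 and 80.5 at D32. The first and last days did not overlap, and the log2 fold changes were -0.66 (SE 0.18, edgeR adjusted p = 0.00848) in RWB, -0.81 (SE 0.16) in SSCd and -0.80 (SE 0.18) in SSCi, the smallest among called members in each culture. Its partners Bub1 and Bub1b were left at 10.6% and 25.1% in RWB and at 5.32% and 14.8% in SSCi, and the kinase Ttk at 10.1% and 5.54%. Mad2l1, the protein that inhibits Cdc20 until chromosomes attach, was left at 25.3% and 19.0%.

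The 3 genes of the anaphase trigger kept unlike shares, and differences between them were not tested. Cdc20, the activator of the anaphase-promoting complex, fell from 54.7 ± 15.7 CPM (SD, n = 2) to 4.14 ± 1.03 (n = 3) in SSCi, and Ube2c, which supplies ubiquitin to that complex, from 41.0 and 57.4 to 3.29, 2.66 and 3.35 CPM. Pttg1, their substrate, stood at 35.5 and 34.2 at D18, 23.0 and 19.2 at D25, and 19.6, 22.0 and 25.8 at D32. In RWB Pttg1 stood at 33.9 and 24.6 at D18, 29.7, 33.8 and 20.6 at D22, and 25.3, 16.2 and 14.4 at D25. Its D18 and D25 libraries overlapped in RWB but its D18 and D32 libraries did not in SSCi, and only in SSCd, from D18 to D28, did it pass the test (-1.0, SE 0.30, edgeR adjusted p = 0.0148). Its transcript of the highest mean at D18, Pttg1-202, ran from 0.153 to 14.7 CPM of library total among the D32 libraries of SSCi.

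Of the chromosomal passenger genes, Aurkb, the kinase that corrects wrong attachments, fell from 45.1 and 46.8 CPM at D18 through 11.4, 14.7 and 15.3 at D22 to 2.06, 6.42 and 5.24 at D25 in RWB. Birc5, survivin, and Cdca8, borealin, were left at 10.4% and 12.7% in RWB and 6.49% and 9.46% in SSCi. Incenp, the scaffold that binds all of them, was left at 21.9% in RWB, 30.0% in SSCd and 29.0% in SSCi. Incenp stood at 21.9, 20.8 and 25.4 CPM in SSCi D32, where Aurkb stood at 3.04, 1.82 and 2.99.

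The 11 spindle motor and assembly genes were all lower over each course. Kif11, the motor that pushes spindle poles apart, fell from 79.2 ± 11.5 CPM (SD, n = 2) to 4.21 ± 0.56 (n = 3) in SSCi, and Aspm from 95.4 ± 20.7 to 4.16 ± 1.84. Dlgap5, which stabilises spindle fibres, was left at 8.12% in RWB and 4.03% in SSCi. The 7 cytokinesis genes kept somewhat more, with a median of 15.3% in RWB and 11.2% in SSCi, and Ect2, which switches on the contractile ring, was left at 16.5% and 11.2%. The members with the smallest falls in SSCi were Pttg1, Bub3, Spc25, Incenp and Ncapd2. In SSCd they were Bub3, Pttg1, Incenp, Ncapd2 and Prc1, and in RWB Pttg1, Bub3, Spc25, Smc4 and Cks2, a cyclin-dependent kinase subunit left at 25.7%. The members with the largest falls were Ccnb1, Mki67, Dlgap5, Top2a and Ndc80 in SSCi, Ndc80, Aspm, Ccnb1, Ncapg and Mki67 in SSCd, and Mki67, Plk1, Dlgap5, Top2a and Kif4 in RWB.

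**Figure D4:**
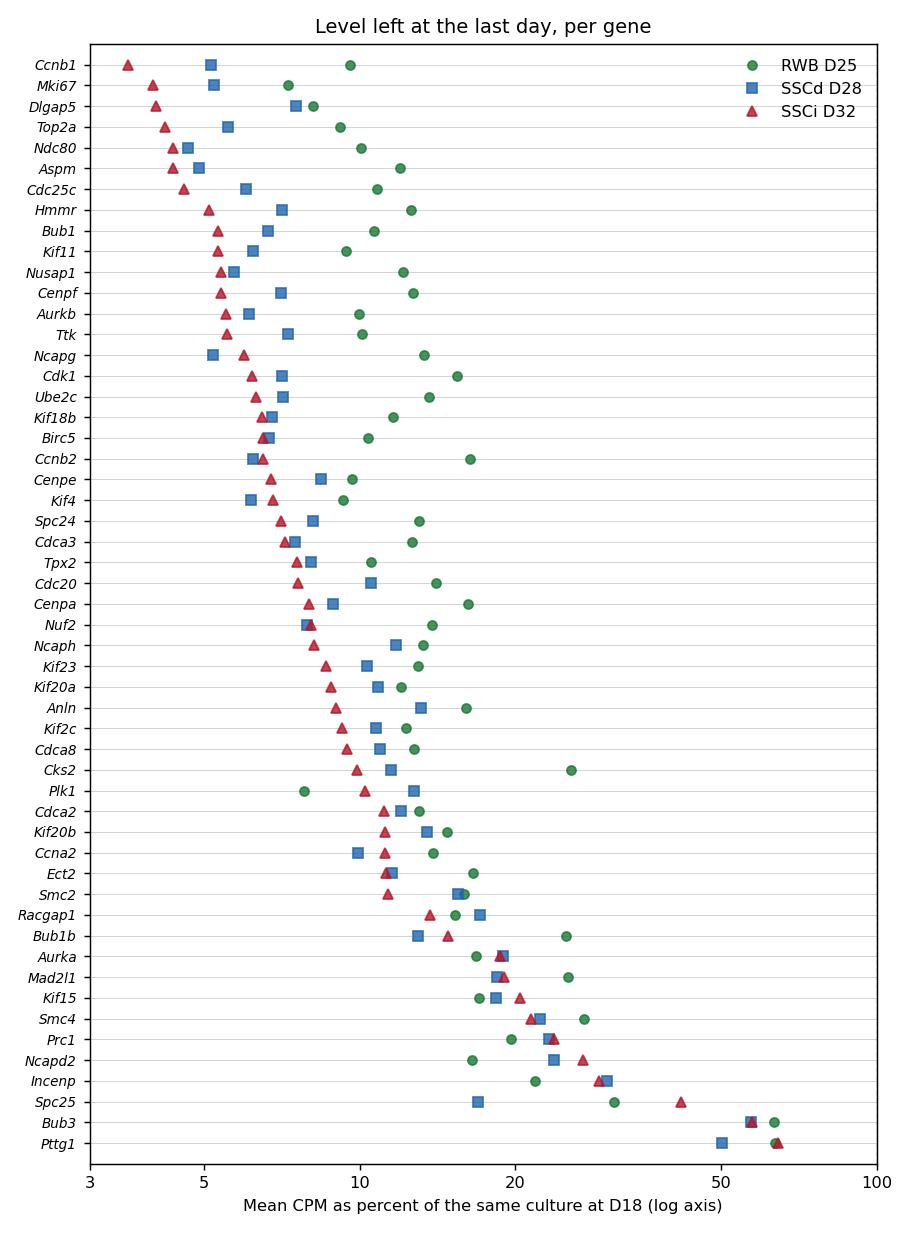
Mean CPM at the last day as a percent of the same culture's D18 mean (log axis) for each of the 53 genes, in RWB D25 (circles), SSCd D28 (squares) and SSCi D32 (triangles). Ccnb1 is lowest in SSCi at 3.56%, and Bub3 and Pttg1 keep 50.1% to 64.4% in all 3.

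Some of these shares depended on how transcripts were combined into genes. The deposited gene values are not sums of the deposited transcript values: for members, the transcripts added up to 43.5% to 161% of the gene value in single libraries. With genes rebuilt as such sums, the median member kept 12.4%, 9.00% and 7.22% of its D18 level at the last day in RWB, SSCd and SSCi. Kif15, a spindle motor, went from 20.4% left in SSCi to 9.18%, and Prc1, which bundles the midzone, from 23.8% to 13.2%. Their leading coding transcripts fell further still. Kif15-201 went from 77.9 ± 10.2 CPM of library total (SD, n = 2) at D18 to 3.55 ± 0.278 (n = 3) at D32 in SSCi, and Prc1-206 from 97.5 ± 17.9 to 4.75 ± 3.01. Prc1 also overlaps Rccd1 over 21810 bases, and Bub3 overlaps Fgfr2 over 11674 bases, both on the opposite strand. In all, 11 members overlap a protein-coding gene, on the opposite strand only. The strand setting used in counting is not given in the sources used here. Spc25 (41.8% in both), Bub3 (57.4% and 60.3%), Pttg1 (64.4% and 65.3%) and Incenp (29.0% and 29.7%) were alike either way. The main transcript Spc25-201 went from 90.3 ± 2.59 to 36.9 ± 6.55 CPM of library total, 40.9% left, and Bub3-201 was left at 62.2%.

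Of 90 other genes of mitosis, all tested, 68 were lower in RWB from D18 to D25 and 1 higher, 72 lower and 1 higher in SSCd to D28, and 71 lower and 1 higher in SSCi to D32. Their median log2 fold changes were -1.95, -2.0 and -2.15. The gene that rose in all 3 was Ncapd3, a subunit of condensin II, by 0.93, 1.04 and 1.10 on the log2 scale, with edgeR adjusted p values up to 0.00249. The lowest values were those of Depdc1b (-3.70) and Espl1 (-3.65), the separase, in RWB, Cep55 (-4.69) and Depdc1a (-4.28) in SSCd, and Ska1 (-4.78) and Cep55 (-4.68) in SSCi. Foxm1, a transcription factor of late-cycle genes, was at -3.49, -4.22 and -4.56. At the other end, after Ncapd3, stood Anapc10 in RWB (0.64), Anapc1 in SSCd (0.26) and Lin37 in SSCi (0.26), none of which passed the test. Retinal progenitor markers moved the same way, with 10, 11 and 9 of 12 lower, and the sum of the 12 went from 2775 and 2900 CPM at D18 to between 693 and 1032 at D25 in RWB. Photoreceptor markers moved the other way, with 11, 10 and 11 of 12 higher and 0, 1 and 0 lower, where 14.9%, 17.5% and 16.2% of all genes were higher. The part of these cell types in the fall of the mitosis genes was not tested.

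The cultures could be compared at the same day in 5 pairs of groups. At D18, none of the 53 was called between RWB and SSCd (0.488% of all genes called in either direction), between SSCd and SSCi (3.86%) or between RWB and SSCi (5.23%). At an unadjusted p under 0.05 the edgeR counts were 1, 0 and 1, and DESeq2 and limma-voom also called 0. The member medians were 0.26, 0.07 and 0.27 in log2, and the median standard error of a member was 0.34 to 0.38, so differences of that size were not detectable here. Of the 53 log2 fold changes, 48 were above 0 for RWB against SSCd, 32 for SSCd against SSCi and 50 for RWB against SSCi. The 53 genes come from the same few libraries, so these signs are not separate observations, and they were not tested.

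At D22 none of the 53 was called between RWB and SSCd either (1.89% of all genes in either direction), although 50 log2 fold changes were above 0, with a median of 0.45. In 23 members every RWB library lay above every SSCd library, against 7.34% of all genes, and 12 had an unadjusted p under 0.05, as had 2194 of all 16792 genes. DESeq2 and limma-voom called 0. Same-numbered libraries deviated together in this pair of groups. In both groups replicate 1 was a library of high mitochondrial share (10.2% in RWB, 8.26% in SSCd), so the block in part follows that share. With the replicate number as a block and only these groups fitted, 19 members were higher in RWB and none lower, against 8.55% of all genes called in either direction, and with the block in the fit of all libraries 2 were. The 19 ran from 0.44 for Cdca3 to 0.92 for Cdc20, with edgeR adjusted p values from 0.0112 for Cdk1 to 0.0498 for Bub1b. Cdc20 stood at 62.8, 34.6 and 46.9 CPM in RWB and 31.6, 23.5 and 20.0 in SSCd, and Ccnb1 at 120, 126 and 82.4 against 70.8, 78.6 and 41.8. Neither gene overlapped between the cultures. Beside this, in the fit without the block, 3 of 12 photoreceptor markers were lower in RWB and none higher (median -1.27). None of 12 retinal progenitor markers was called (median -0.16), and 1 of 8 neurogenic progenitor markers was higher and none lower (median -0.16). The part of these cell types in the result was not tested. The change from D18 to D22 itself was compared between RWB and SSCd, and edgeR called no member and 0% of all genes (unadjusted p under 0.05 in 0 members and 525 of 16792 genes). DESeq2 and limma-voom called 0 members, and the median standard error of a member was 0.47.

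At D25, RWB could be set against intact organoids. Of the 53, 29 were lower in RWB (5.08% of all genes) and none higher, with a median log2 fold change of -1.16. Aurkb (-2.10, SE 0.42), Plk1 (-1.99, SE 0.36) and Mki67 (-1.91, SE 0.41) were lowest, with edgeR adjusted p values up to 0.00787. Mki67 stood at 30.8, 83.6 and 44.3 CPM in RWB and 213.5 and 184 in SSCi, and Plk1 at 3.09, 5.11 and 4.27 against 12.6 and 20.7. The genes that did not differ beyond error included Spc25 (0.04), Bub3 (-0.09), Pttg1 (-0.18) and Smc4 (-0.30). All but 3 members were below 0, and in 45 every RWB library lay below both SSCi libraries, against 19.6% of all genes. By role, 2 of 2 chromosome markers, 5 of 6 chromosomal passenger and related genes and 8 of 11 spindle motor and assembly genes were lower. So were 4 of 7 entry cyclins and kinases, 4 of 7 cytokinesis genes and 2 of 5 condensins. The others were 2 of 7 centromere and kinetochore genes, 1 of 3 anaphase trigger genes and 1 of 5 checkpoint genes. Differences between roles were not tested. The count of members called was 17 without RWB D25 replicate 1, whose mitochondrial share was the highest, and 19 without replicate 3. It was 1 when only these 5 libraries were fitted, with the median at -1.16 in that fit too. Of all genes, 8.68% were called in either direction in the full fit, and 3.72%, 12.4% and 0.584% in these fits in turn. Without SSCi D25 replicate 1 or 2, which leaves 1 library in that group, the members' median was -1.15 and -1.23. Beside the full-fit result, 7 of 12 retinal progenitor markers and 6 of 8 neurogenic progenitor markers were lower in RWB and none higher. Of the 5 surface epithelium markers tested, 4 were lower. Photoreceptor markers were mixed, with 3 of 12 higher and 1 lower (median -0.37). Their part in the result was not tested, and rotation, dissection and medium cannot be told apart in it.

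At the last day of each culture some members were higher in RWB, which was sampled at D25 against D28 in SSCd and D32 in SSCi, so day and culture cannot be told apart. Against SSCd D28, 8 members were higher and none lower (1.11% of all genes higher). They were Ncapg (1.57), Aspm (1.56), Ndc80 (1.37), Bub1b (1.12), Ect2 (0.98), Ube2c (0.90), Ccnb1 (1.17) and Nusap1 (1.21), and the median of all 53 was 0.76. Against SSCi D32, 25 were higher and none lower (4.75%), with a median of 0.98. Ccnb1 (1.94, SE 0.32, edgeR adjusted p = 0.000852), Aspm (1.83, SE 0.35) and Cdk1 (1.69, SE 0.40) were highest. Aspm stood at 16.4, 16.3 and 12.1 CPM in RWB D25, 4.68, 8.13 and 2.32 in SSCd D28, and 6.26, 2.87 and 3.35 in SSCi D32, with no overlap between RWB and the others. The size of this gap depended on how transcripts were combined. With genes rebuilt as transcript sums, Aspm was left at 8.15% of its D18 mean in RWB rather than 11.9%. It was left at 5.04% rather than 4.875% in SSCd, and at 3.69% rather than 4.36% in SSCi. Pttg1 (-0.22 and -0.27), Incenp (-0.13 in both), Prc1 (-0.08 and -0.22) and Ncapd2 (-0.05 and -0.20) did not pass the test. Photoreceptor markers were lower in RWB in 3 of 12 against SSCd D28 (1 higher, median -1.13) and in 5 of 12 against SSCi D32 (1 higher, median -1.45). Retinal progenitor markers were not higher as a group. Of 12, 0 were higher and 1 lower against SSCd D28 (median 0.13), and 1 higher and 2 lower against SSCi D32 (median 0.0). Of 8 neurogenic progenitor markers, 0 and 1 were higher and none lower (medians 0.28 and 0.60). Of the 5 surface epithelium markers tested, 3 and 2 were lower. The part of these cell types in the result was not tested. Between SSCd D28 and SSCi D32 none of the 53 was called (0.0834% of all genes in either direction), with 3 members at an unadjusted p under 0.05, 0 called by DESeq2 and limma-voom, and a median of 0.28.

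These last-day counts were unstable. Against SSCd D28 the count was 1, 2 and 14 without RWB D25 replicate 1, 2 or 3, and 1, 17 and 2 without SSCd D28 replicate 1, 2 or 3. It was 0 when only those 6 libraries were fitted, and 1 without the 4 libraries of high mitochondrial share. Of all genes, 3.06% were called in either direction in the full fit and 1.14% to 3.81% with 1 library left out. That share was 0.255% with only those groups and 1.52% without the 4 libraries. Against SSCi D32 the member count was 12 and 13 without RWB D25 replicate 1 or 2, 8 without SSCi D32 replicate 2 or replicate 3, 12 with only those groups fitted, and 13 without the 4 libraries. Calls among all genes were 9.83% in the full fit, and 4.06%, 9.1%, 4.91%, 3.85%, 5.59% and 5.12% in these fits in turn. The members' median stayed above 0 in each of these fits.

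**Figure D5:**
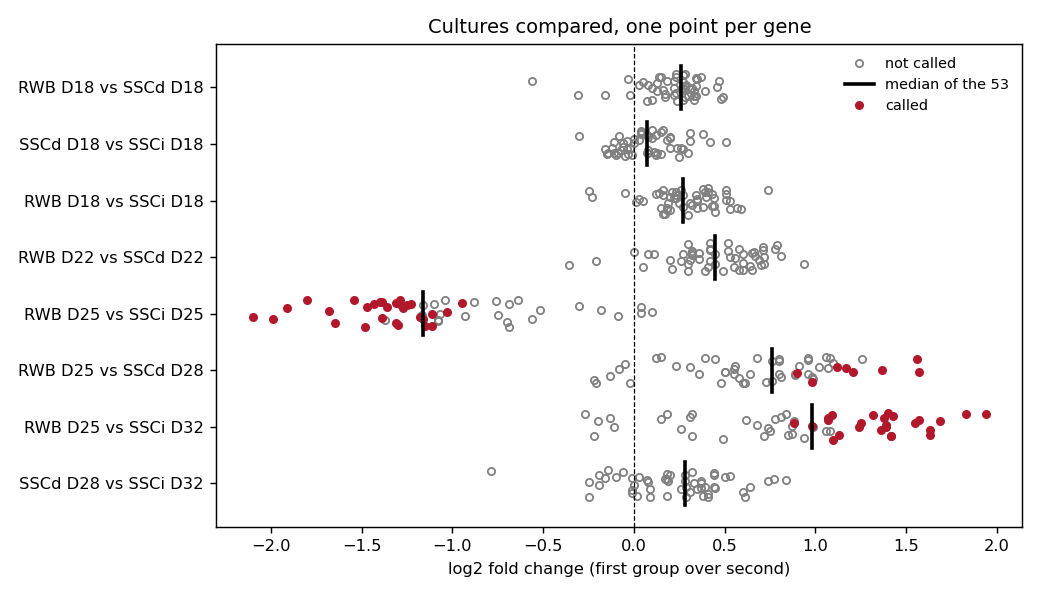
Log2 fold change of each of the 53 genes between cultures (first group over second), with filled red points for genes called at an adjusted p under 0.05 and a bar at the median. Medians run from 0.07 to 0.45 at D18 and D22, to -1.16 for RWB against SSCi at D25, and to 0.76 and 0.98 for RWB D25 against the later days of SSCd and SSCi.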

How the data were processed

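Total polyA RNA of 24 organoid libraries was sequenced in pairs of 125 bases from a stranded kit, per the labels' protocols. The deposited gene and transcript tables hold estimated counts. The build GRCm38.p5 and the tools limma 3.32.2, edgeR 3.13.9 and kallisto 0.42.5 are listed, without their roles, in the submitters' processing notes. Not given in the sources used here are the annotation release, the counting strand and how transcripts were combined into genes.

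Estimated counts were rounded, genes filtered by filterByExpr by group (16792 of 33846 left), scaled by TMM and fitted as 9 group means over all 24 libraries with edgeR 4.0.16 (robust quasi-likelihood test) in R 4.3.3, with Benjamini-Hochberg adjustment over all genes at a threshold of 0.05. Alternatives were DESeq2 1.42.0, limma-voom (limma 3.58.1), DESeq2 size factors, no filter, only the groups compared, a replicate block and leaving out each library. Replicate numbers come from the sample titles. With 3 or more pairs, same-numbered libraries deviated together, every correlation above 0.1, in RWB D25 against D22 (0.202 to 0.493), SSCd D22 against D18 (0.123 to 0.41), SSCd D28 against D22 (0.197 to 0.401) and RWB against SSCd at D22 (0.203 to 0.431). What a number shares is not stated. Replicate 1 was of high mitochondrial share in both groups of RWB D25 against D22, SSCd D22 against D18 and RWB against SSCd at D22. The series' design text calls the repeats biological replicates. The p-values of the full fit set differences between groups against the spread between repeats, estimated over all 9 groups and without pairing.

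Named genes were a panel of members, the 3 highest and 3 lowest called members of a comparison, the 5 smallest and largest falls of each culture, and every member where 5 or fewer were called or not called. Other members are named to show a complex or role. Members and lists were chosen with earlier results of these data known.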

Additional observations from a re-analysis of the deposited data

How the results depend on the processing

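Leaving out each library in turn gave 5 to 24 members called for RWB D22 against D18, 33 to 49 for SSCd D22 against D18, 14 to 39 for SSCi D25 against D18, 6 to 36 for RWB against SSCi at D25, 1 to 17 for RWB D25 against SSCd D28, and 8 to 32 for RWB D25 against SSCi D32. With only the groups compared, counts were 28 for RWB D25 against D22, 1 for RWB against SSCi at D25, 0 for RWB D25 against SSCd D28 and 12 for RWB D25 against SSCi D32. With the replicate block, RWB against SSCd at D22 gave 2 members over all libraries and 19 with only the groups compared, RWB D25 against SSCd D28 gave 18 and 0, and RWB D25 against SSCi D32 gave 3 with only the groups compared. In the last 2 the numbers did not pair the libraries, and in the 3 other paired comparisons the block moved no count by over 1.5 times. DESeq2 called 14 and limma-voom 3 for RWB D25 against SSCd D28, and limma-voom 10 for RWB D25 against SSCi D32. Without the 4 libraries of high mitochondrial share, chosen after seeing the data, counts were 20 for RWB D22 against D18, 17 for RWB against SSCi at D25, 1 for RWB D25 against SSCd D28 and 13 for RWB D25 against SSCi D32. Gene counts as sums of transcript counts, also added after seeing the data, moved no count of members by over 1.5 times. Calls among all genes moved too. With only the groups compared they went from 8.68% to 0.584% for RWB against SSCi at D25. They went from 3.06% to 0.255% for RWB D25 against SSCd D28, and from 9.83% to 5.59% for RWB D25 against SSCi D32. The cause of these shifts was not tested. The 3 whole-course counts stayed between 50 and 53 when any single library was left out. Of 3626 fold changes of panel genes under the alternatives, 212 lost their call, 43 gained one and 0 called values turned in direction, while 118 changed sign where neither value was called. Groups of 2 or 3 libraries limit all of these counts.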
